A study of Homo sapiens with 2 samples.

Results

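The regions described here are 3318 places in the genome of U2OS cells that were strongly open in both ATAC-seq libraries of the study and lay far from any protein-coding gene. Overlapping peaks of both libraries on chromosomes 1 to 22 were merged, which gave 338855 regions. A region was kept when its highest pileup, the number of tags covering the summit, was at least 50 in each library and when it lay over 50 kb outside the RefSeq bounds of every protein-coding gene. The pileup minimum alone left 23676 strong shared regions, of which 3318, or 14% (Wilson 95% interval 13.6 to 14.5%), were far from protein-coding genes and 20358 were nearer to or inside one. The regions were thus selected on their pileups in both libraries, so their number, heights and ratios between libraries are given as a description with no test.

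U2OS is an established human osteosarcoma line, and all cells came from that line. Cells of one group had been infected with a short hairpin that targets Vanguard, a long non-coding RNA (sh-VNGD, 1 library), and cells of the other with a control hairpin (sh-ctrl, 1 library). ATAC-seq uses the Tn5 transposase to cut and tag open DNA, so it reads accessibility and not RNA, and the knockdown itself is not measured by it. With 1 library per group there was no replicate check, and all intervals cover counting error only. In a bulk library, fewer cells with an open region and less opening in every cell cannot be told apart.

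Open chromatin far from coding genes is mostly made of enhancers, which bind transcription factors and act on promoters at a distance, of insulator sites bound by CTCF and cohesin, and of promoters of non-coding RNA genes. Gene deserts can hold enhancers of a developmental gene at their border. Ribosomal RNA genes, small nuclear RNA genes and nuclear copies of mitochondrial DNA also lie outside protein-coding genes and exist in many near-identical copies, so that reads there cannot always be given to one place.

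Among the 3318 far regions, 88 held the start of a long non-coding RNA (lncRNA) gene, with 97 such genes among them. These starts are the places where a promoter sequence in the RefSeq tables overlaps the signal. A promoter window can reach past the edge of its region, as that of LOC124904392 does. The sequences below run from 250 bases before to 50 bases after a start, are credited to RefSeq (GRCh38.p14), and are written 5′ to 3′ on the strand of the gene. The first 3 belong to the starts with the highest lower pileup of both libraries, the next 3 to the lowest ratios of sh-VNGD over sh-ctrl, and the last 3 to the highest ratios. Capitals mark every match, on either strand, to 1 of 8 short motifs, and neighbouring matches run together where they overlap. The motif of AP-1, a factor made of FOS and JUN proteins, was searched as TGANTCA, in which N is any base. That of RUNX factors, which act in bone and blood, was TGTGGT. That of TEAD factors, the DNA-binding partners of YAP, was GGAATG. The E-box of helix-loop-helix factors was searched as CACGTG, and the GC box of SP factors as GGGCGG. The box bound by the factor NF-Y was CCAAT, and the letters of the TATA box, which places the start of transcription, were TATAAA. The eighth was the core motif of the insulator protein CTCF.
LINC00111: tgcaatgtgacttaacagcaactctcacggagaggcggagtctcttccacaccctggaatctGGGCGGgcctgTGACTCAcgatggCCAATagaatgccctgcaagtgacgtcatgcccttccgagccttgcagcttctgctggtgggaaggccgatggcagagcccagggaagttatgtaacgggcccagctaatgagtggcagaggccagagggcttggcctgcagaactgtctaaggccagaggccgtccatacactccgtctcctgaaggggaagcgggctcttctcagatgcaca
MIRLET7A1HG: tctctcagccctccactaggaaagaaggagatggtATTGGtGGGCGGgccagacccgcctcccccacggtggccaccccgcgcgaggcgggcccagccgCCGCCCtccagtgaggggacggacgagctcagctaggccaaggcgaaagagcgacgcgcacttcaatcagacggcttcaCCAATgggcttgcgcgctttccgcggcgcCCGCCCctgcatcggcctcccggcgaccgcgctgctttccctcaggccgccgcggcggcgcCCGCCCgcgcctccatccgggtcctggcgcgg
LINC01522: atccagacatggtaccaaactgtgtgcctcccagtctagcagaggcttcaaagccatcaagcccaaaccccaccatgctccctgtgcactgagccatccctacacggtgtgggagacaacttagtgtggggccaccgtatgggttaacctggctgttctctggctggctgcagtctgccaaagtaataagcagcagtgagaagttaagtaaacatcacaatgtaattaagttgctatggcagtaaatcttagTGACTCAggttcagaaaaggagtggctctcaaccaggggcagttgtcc
LINC01213: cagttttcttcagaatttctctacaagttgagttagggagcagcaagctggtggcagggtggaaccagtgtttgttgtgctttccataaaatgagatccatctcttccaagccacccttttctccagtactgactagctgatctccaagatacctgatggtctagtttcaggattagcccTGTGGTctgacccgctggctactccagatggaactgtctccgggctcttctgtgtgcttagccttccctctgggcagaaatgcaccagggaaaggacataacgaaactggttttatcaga
LINC02026: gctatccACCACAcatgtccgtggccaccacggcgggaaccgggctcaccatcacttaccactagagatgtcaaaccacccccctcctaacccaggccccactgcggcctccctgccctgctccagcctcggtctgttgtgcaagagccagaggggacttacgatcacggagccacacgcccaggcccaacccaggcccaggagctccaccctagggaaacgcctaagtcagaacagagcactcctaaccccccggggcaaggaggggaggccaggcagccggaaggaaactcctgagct
TRD-AS1: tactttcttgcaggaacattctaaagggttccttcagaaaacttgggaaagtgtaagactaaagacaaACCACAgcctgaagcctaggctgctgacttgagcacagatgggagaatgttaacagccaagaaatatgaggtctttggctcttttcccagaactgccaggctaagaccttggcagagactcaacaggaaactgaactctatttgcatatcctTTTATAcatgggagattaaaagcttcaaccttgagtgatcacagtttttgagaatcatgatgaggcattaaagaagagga
LOC124904392: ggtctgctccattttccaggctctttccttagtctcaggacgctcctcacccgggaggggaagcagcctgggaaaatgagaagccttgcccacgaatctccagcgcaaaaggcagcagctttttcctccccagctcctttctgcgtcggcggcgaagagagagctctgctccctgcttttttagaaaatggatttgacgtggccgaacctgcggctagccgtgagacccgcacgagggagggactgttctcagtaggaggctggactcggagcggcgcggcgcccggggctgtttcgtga
LINC01271: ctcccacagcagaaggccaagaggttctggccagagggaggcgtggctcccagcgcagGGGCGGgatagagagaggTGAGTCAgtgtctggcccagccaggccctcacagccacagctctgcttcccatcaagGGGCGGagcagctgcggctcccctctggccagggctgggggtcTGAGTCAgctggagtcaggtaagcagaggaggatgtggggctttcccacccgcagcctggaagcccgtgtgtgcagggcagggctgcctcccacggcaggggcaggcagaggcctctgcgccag
LOC124902635: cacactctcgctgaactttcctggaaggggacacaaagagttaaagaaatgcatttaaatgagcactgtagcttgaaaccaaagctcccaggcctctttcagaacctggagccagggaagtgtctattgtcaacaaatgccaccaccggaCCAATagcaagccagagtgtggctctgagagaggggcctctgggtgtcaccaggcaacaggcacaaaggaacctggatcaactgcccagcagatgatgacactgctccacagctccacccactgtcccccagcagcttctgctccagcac

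The LINC00111 sequence (chr21:41679052-41679351, plus strand) lay in a region with a pileup of 205 in sh-VNGD and 195 in sh-ctrl and held AP-1, GC box and CCAAT letters. MIRLET7A1HG, named as the host transcript of a let-7 microRNA (chr9:94166008-94166307, plus strand), had a pileup of 176 in sh-VNGD and 173 in sh-ctrl. Its window was 72.7% G and C and held GC boxes and CCAAT boxes. LINC01522 (chr20:47990068-47990367, minus strand) had pileups of 175 in sh-VNGD and 163 in sh-ctrl, with AP-1 letters as its single match. These 3 starts were thus of nearly equal height in both libraries before scaling, and they differed in base composition.

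The LINC01213 window (chr3:150238269-150238568, plus strand) held RUNX letters, and its region had a pileup of 61 in sh-VNGD against 130 in sh-ctrl. LINC02026 (chr3:194003610-194003909, minus strand) also held RUNX letters and had pileups of 56 in sh-VNGD and 88 in sh-ctrl. TRD-AS1, antisense to the T cell receptor delta locus (chr14:22432704-22433003, minus strand), held RUNX and TATA letters and had pileups of 54 in sh-VNGD and 84 in sh-ctrl. At the other end, LOC124904392 (chr1:120665071-120665370, plus strand) had pileups of 85 in sh-VNGD and 54 in sh-ctrl and held none of the motifs. LINC01271 (chr20:50321293-50321592, minus strand) had 115 in sh-VNGD and 76 in sh-ctrl, with AP-1 letters and GC boxes. LOC124902635 (chr11:13114825-13115124, plus strand) had 107 in sh-VNGD and 71 in sh-ctrl, with a CCAAT box. The matches are letters in a window and not measured binding.

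Over all 97 windows, TGANTCA stood in 14.4% (Wilson 95% interval 8.80 to 22.8%), against 10.5% of 11145 lncRNA promoters and 7.87% of 26246 promoters of any gene in the table. GGGCGG stood in 48.5% of the windows, against 25.3% of lncRNA promoters and 43.9% of all promoters. TGTGGT stood in 20.6%, against 16.2% and 13.2% in those sets, CCAAT in 40.2%, against 34.7% and 35.3%, and TATAAA in 13.4%, against 15.2% and 12.2%. GGAATG (14.4%) and CACGTG (4.12%) were below the lncRNA promoters (17.3% and 5.50%). The CTCF letters stood in 0 of 97 windows, which allows a share of up to 3.09% (3 counts of the total), and in 0.0449% of lncRNA promoters. The median window was 57% G and C with 14 CpG, against 49.7% and 5 CpG in all lncRNA promoters and 58% and 13 CpG in all promoters, so the windows at these starts were richer in G and C than the usual lncRNA promoter. The promoter sets were not chosen by pileup, and lncRNA starts in strong shared regions nearer genes were not compared. Whether the differences in letters and composition are particular to far regions was thus not tested. The 97 windows are not all independent, since some overlap on opposite strands and 4 on chromosome 21 have the same sequence. The interval does not allow for this.

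Depth differed between the libraries and sets how the values can be read. After repeats were dropped, 31326715 tags were left for sh-VNGD and 22931980 for sh-ctrl, 1.37 times as many for sh-VNGD, and the repeats had made up 35% of the sh-VNGD tags and 56% of the sh-ctrl tags. Pileups are unscaled, and with 1 tag kept per position and tags of 200 bp the highest possible pileup was 400. The log2 ratio below is the sh-VNGD over the sh-ctrl pileup, each per tag kept in that library. The median of that ratio over all 23676 strong shared regions was −0.46, and values called relative are measured from it.

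The far regions were of like unscaled height in both libraries. The median pileup was 86 in sh-VNGD and 84 in sh-ctrl, with the central 90% of regions between 54 and 158 in sh-VNGD and between 52 and 156 in sh-ctrl. The highest was 314 in sh-VNGD and 270 in sh-ctrl. Unscaled, 1905 regions (57.4%) were higher in sh-VNGD, against 44.5% of the strong shared regions nearer genes and 41.2% of those within 1000 bp of a gene end. Scaled to kept tags, the median log2 ratio was −0.41 (quartiles −0.54 and −0.26), and 94.4% of far regions were below 0. The median turned to 0.04 on unscaled pileups and to 0.14 when scaled to tags read, so the sign follows the scaling, and the comparison with other strong shared regions is the one that does not depend on it.

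Relative to the median of all strong shared regions, 91 far regions (2.74%) were over 1.5-fold lower in sh-VNGD, where 3.6% of all strong shared regions were. Another 72 (2.17%) were over 1.5-fold higher, where 1.38% of all strong shared regions were. The counting interval lay wholly below that median in 142 far regions (4.28%), where it did in 6.74% of all strong shared regions, and wholly above it in 215 (6.48%), where it did in 3.73%. Since the ratio and the selection use the same pileups, nothing further is read from these counts.

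Ratios on either side of the pileup threshold were close. A lower pileup of exactly 50 was found in 101 far regions, with a median log2 ratio of −0.31, and the 90 far regions at exactly 49, which were not kept, had −0.30. The kept regions nearest to the 50 kb limit lay 50015 bp from ID4 and 50029 bp from RET and from BCAS1. Those just past the limit lay 49976 bp from SESTD1, 49962 bp from NBPF26 and 49918 bp from HMGN3. The median distance of the kept regions was 166 kb, 527 lay over 500 kb and 137 over 1000 kb from the nearest protein-coding gene, and 1614 different genes were the nearest one.

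**Figure D1:**
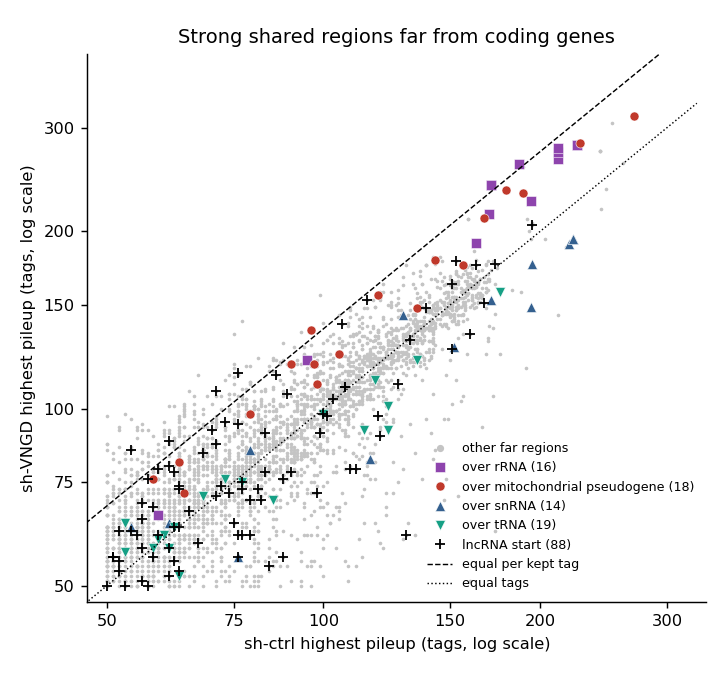
Highest pileup of each of the 3318 far regions in sh-VNGD (vertical, tags, log scale) and sh-ctrl (horizontal, tags, log scale), with regions over rRNA, mitochondrial pseudogene, snRNA and tRNA genes and lncRNA starts marked. The dashed line is equal height per kept tag and the dotted line equal tags. Most points lie near the dotted line, and all 18 mitochondrial pseudogene regions and 16 rRNA regions lie above it.

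Far regions differed from the other strong shared regions most in the tags around them. The fold enrichment in the files is the pileup over a background taken from the tags within 10 kb, so that tag count could be recovered. It includes the tags of the peak itself and compares the same libraries as the rule, so it too is a description. A median far region had 333 tags within 10 kb in sh-VNGD and 244 in sh-ctrl. Scaled to kept tags this gave a median log2 ratio of 0.02, against −0.33 in the 20358 strong shared regions nearer genes. The value was above 0 in 53.9% of far regions, 36.7% of the 1922 regions inside a gene but over 50 kb from its ends, and 5.15% of the 8245 regions at gene ends. Those deep regions had a median of −0.13 and the gene ends −0.36, so the far regions stood nearest to the interiors of long genes.

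The summit ratio varied less between these places than the ratio of the surroundings. The median log2 ratio of the summit was −0.41 in far regions, −0.45 deep inside genes and −0.49 at gene ends. The fold enrichment, which sets one against the other, was 12.2 in sh-VNGD and 15.6 in sh-ctrl for the median far region, a median log2 ratio of −0.32, against −0.12 at gene ends. At the median far region the pileup was 27.7% of the tags within 10 kb in sh-VNGD and 37.6% in sh-ctrl. At gene ends it was 24.5% in sh-VNGD against 27.1% in sh-ctrl.

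The difference was present on every chromosome analysed. On 22 of 22 chromosomes the far regions had the higher median than the nearer regions, both for the summit and for the tags within 10 kb. The summit pileups are those the rule used, and chromosomes of the same 2 libraries are not replicates, so these tallies are a description. On 14 chromosomes the far median for the tags within 10 kb was above 0. For the tags within 10 kb it ran between −0.17 on chromosome 17 and 0.09 on chromosome 4. With distance from the nearest gene the median of that ratio was −0.07 at 50 to 100 kb, 0.02 at 100 to 200 kb, 0.06 at 200 to 500 kb, 0.08 at 500 to 1000 kb and 0.02 beyond 1000 kb. Among the 1919 far regions with no other peak within 5 kb of a summit it was 0.05, and in gene ends of the same kind −0.33. The libraries also differ in depth and in the share of repeated positions, and the part of either in this difference was not tested.

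**Figure D2:**
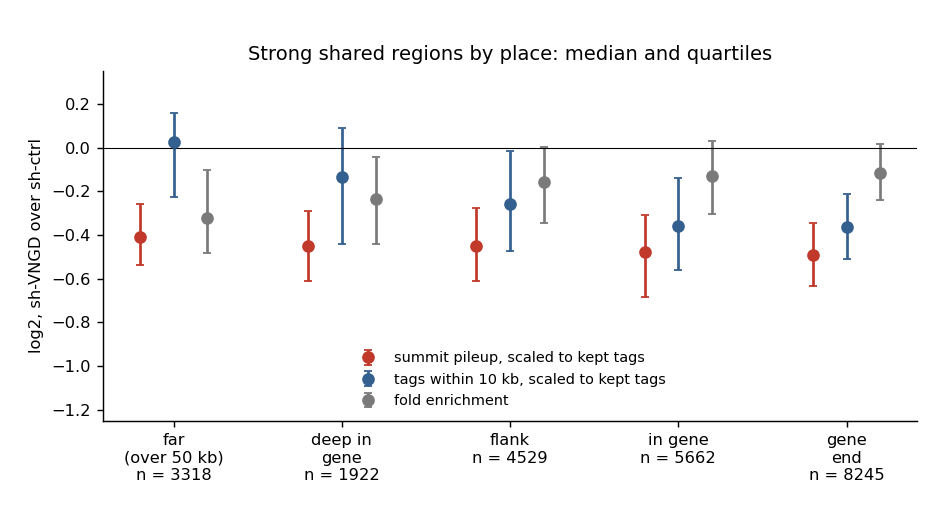
Log2 of sh-VNGD over sh-ctrl for the summit pileup and the tags within 10 kb, each scaled to kept tags, and for the fold enrichment, in strong shared regions by place (points are medians, bars are quartiles over regions and not replicate error). "Flank" is over 1000 bp and up to 50 kb outside a gene. The summit medians lie between −0.49 and −0.41, while the tags within 10 kb range from −0.36 at gene ends to 0.02 in far regions.

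The median far region was 704 bp wide (quartiles 476 and 844), against 670 bp in the nearer regions. By place the nearer regions had medians of 814 bp at gene ends, 647.5 bp deep inside genes, 566 bp elsewhere inside genes and 571 bp in the flanks up to 50 kb outside a gene. Far regions wider than 1000 bp were few, at 4.52%, against 15.6% of the nearer regions and 28.7% of those at gene ends. Over 1000 and up to 1200 bp were 2.65% of the far regions, against 3.69% deep inside genes, and wider ones made up 1.87% of the far regions, against 2.24% deep inside genes. In 3053 far regions 1 peak of each library made the region. The summits of both libraries lay a median of 11 bp apart, and in 87.3% within 50 bp. The widths had 2 modes. Regions over 700 and up to 900 bp made up 37.9% of the far regions and had a median pileup of 106 in each library, and regions over 300 and up to 500 bp made up 26.3%, with medians of 76 in sh-VNGD against 68 in sh-ctrl. The wider kind had a median log2 ratio of −0.43 and the narrower kind −0.36.

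**Figure D3:**
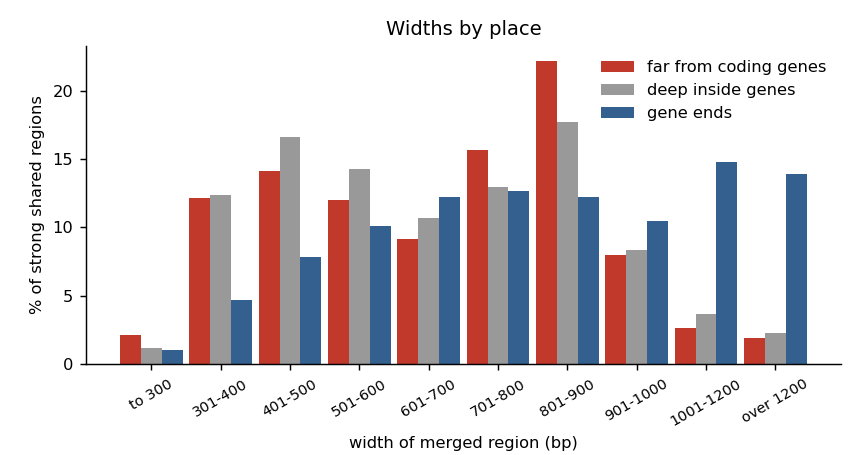
Share of strong shared regions in each width class (bp), as a percentage of the far regions, the regions deep inside genes and those at gene ends. Far regions are most frequent over 800 and up to 900 bp (22.2%) and, in the narrower range, over 400 and up to 500 bp (14.1%), while 28.7% of gene ends are wider than 1000 bp.

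Far regions were less frequent among strong than among weak shared regions. Of all 338855 merged regions 26% were far, and of the 144151 with a peak in both libraries 23.6%. The far share of shared regions was 29.0% where the lower pileup was under 15, 17.3% at 30 to 50 and 13.5% at 50 to 100. Within the strong regions it was 14.1% at 50 to 60, 13.6% at 60 to 75, 12.8% at 75 to 100, 15.4% at 100 to 150 and 15.5% at 150 or more, so it was lowest at 75 to 100. Of the 88127 far regions of any height, 38.6% had a peak in both libraries, and 9.75% of those met the pileup minimum.

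The 10 highest far regions, ranked by the lower pileup of both libraries, were led by chr3:96617148-96618561 over MTRNR2L12, a nuclear copy of mitochondrial ribosomal RNA sequence, with 314 tags in sh-VNGD, against 270 in sh-ctrl. The second, chr20:53805127-53806287, lay 137 kb from BCAS1 with 261 tags in each library. The third, chr13:109424037-109424460, lay 216 kb from MYO16, which encodes an unconventional myosin, with 306 tags in sh-VNGD, against 252 in sh-ctrl. It was only 424 bp wide and stood out from its surroundings by a fold enrichment of 34.0 in sh-VNGD and 36.5 in sh-ctrl. A region inside PVT1, the lncRNA gene beside MYC, had 236 tags in sh-VNGD, against 247 in sh-ctrl (chr8:127859428-127860491). A copy of mitochondrial MTCO1 on chromosome 17, MTCO1P40, had 282 in sh-VNGD against 227 in sh-ctrl. The other 5 lay in the ribosomal DNA of chromosome 21, with 274 or 280 tags in sh-VNGD, against 242 or 225 in sh-ctrl.

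Repeated genes gave several of the highest values, and their classes differed in ratio. Pileups over rRNA genes were 66 to 280 in the 16 regions of sh-VNGD and 59 to 225 in sh-ctrl, with a median log2 ratio of −0.11, and all 16 stood above the median of strong shared regions. The RNA45SN2 region chr21:8204727-8207874 had 240 tags in sh-VNGD, against 171 in sh-ctrl, and a region over RNA45SN1 and one over RNA45SN3 had the same 2 values. Their fold enrichment was low, with medians of 1.75 in sh-VNGD and 1.66 in sh-ctrl, and the median number of tags within 10 kb was 7396 in sh-VNGD against 5347 in sh-ctrl. The 18 regions over mitochondrial pseudogenes had 72 to 314 tags in sh-VNGD, against 58 to 270 in sh-ctrl, a median log2 ratio of −0.14, and again all stood above the median. The counting interval lay wholly above that median in 12 of the 16 rRNA regions and 8 of the 18 mitochondrial ones, where it did in 3.73% of all strong shared regions. Several of the rRNA regions lay over copies of the same repeated gene and had the same pileups, so the 12 cannot be counted as independent sites. Mitochondrial DNA carries no nucleosomes and is cut freely by Tn5, and the rule by which reads were split between it and its nuclear copies is not known here, so these 18 values are uncertain.

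Genes classed as small nuclear RNA, among them U1 genes of the spliceosome, had lower ratios. The 14 regions over them had a median log2 ratio of −0.64, between −0.95 and −0.23, and 10 of 14 were below the median of strong shared regions. In 2 of the 14 the whole interval was below it, where it was in 6.74% of all strong shared regions. RNVU1-1, a variant U1 gene, had 82 tags in sh-VNGD, against 116 in sh-ctrl. RNVU1-22 had 149 in sh-VNGD and 194 in sh-ctrl, and RNU1-4 had 153 in sh-VNGD and 171 in sh-ctrl. RNVU1-2 and RNVU1-3 were above the median, the first with 144 tags in sh-VNGD against 129 in sh-ctrl, and RNVU1-3 with 63 in sh-VNGD against 54 in sh-ctrl. The tags within 10 kb were lower in sh-VNGD in all 14, with a median log2 ratio of −0.73. The 3 genes LOC124904142, LOC124904143 and LOC124904144 on chromosome 17 gave 194 tags in sh-VNGD, against 222 in sh-ctrl each, the same values to the tag. The 14 regions thus cannot be counted as independent sites.

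The 19 regions over tRNA genes had 52 to 158 tags in sh-VNGD, against 53 to 176 in sh-ctrl, with a median log2 ratio of −0.49, close to the median of all strong shared regions. The strongest was TRQ-CTG9-1, a glutamine tRNA gene of chromosome 1, with 158 in sh-VNGD and 176 in sh-ctrl. TRQ-CTG4-1 had the lowest ratio, with 92 in sh-VNGD and 123 in sh-ctrl (relative log2 −0.41, interval −0.81 to −0.004). On chromosome 6, 8 tRNA regions had 52 to 98 tags in sh-VNGD, against 61 to 114 in sh-ctrl. These lay near the large histone and tRNA gene group of that chromosome, with H2BC13 or ZNF184 among the nearest coding genes.

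Identical values recurred at some places. In 57 far regions (1.72%) both pileups and both peak widths recurred at another place, on an assembled chromosome for 24 and only on alternate or unplaced sequence for 33. The share was 0.265% in the nearer regions. On chromosome 21, 5 regions of 2481 bp each had 134 tags in sh-VNGD, against 111 in sh-ctrl, and 4 regions of 959 bp had 109 in sh-VNGD and 107 in sh-ctrl. On chromosome 5, 4 regions, of which 3 lay over GUSB pseudogenes, had 101 tags in sh-VNGD, against 80 in sh-ctrl. Such places may not be independent sites.

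The remaining members were mostly unannotated. RefSeq listed no gene of any kind under 2210 far regions (66.6%), against 79.6% of nearer regions when protein-coding genes are left aside. A lncRNA gene overlapped 914 far regions (27.5%, Wilson 95% interval 26.1 to 29.1%), against 17.7% of the nearer ones, and their median log2 ratio of −0.43 was close to the −0.41 of the regions with nothing listed. Another 128 regions lay over other pseudogenes, with a median of −0.34.

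The 88 regions that held a lncRNA start had a median pileup of 75.5 in sh-VNGD and 76 in sh-ctrl and a median log2 ratio of −0.43, against −0.41 in the other far regions. Their surroundings differed more. The tags within 10 kb had a median log2 ratio of −0.24 at the starts and 0.03 in the other far regions, where the nearer regions had −0.36 at gene ends, −0.26 in the flanks and −0.13 deep inside genes. Relative to all strong shared regions, 3 of the 88 were over 1.5-fold lower, where 3.6% of all strong shared regions were, and 3 over 1.5-fold higher, where 1.38% were. These were the 6 whose sequences are printed above after the first 3. LINC01213 was lowest, at a relative log2 of −1.08 (interval −1.54 to −0.63), followed by LINC02026 at −0.64 (−1.15 to −0.14) and TRD-AS1 at −0.62 (−1.14 to −0.11). LOC124904392 was highest at 0.67 (0.16 to 1.19), followed by LINC01271 at 0.61 (0.18 to 1.05) and LOC124902635 at 0.61 (0.16 to 1.06).

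In 9 of these regions lncRNA genes started on both strands. DLEU1 and DLEU2, paired genes of a chromosome 13 segment often deleted in leukaemia, shared a region with 61 tags in sh-VNGD, against 77 in sh-ctrl. LINC00472 and LINC01626 shared one with 139 in sh-VNGD and 106 in sh-ctrl, and MIR4458HG and LINC02226 one with 94 in sh-VNGD and 76 in sh-ctrl. PURPL, a lncRNA induced by p53, had 114 in sh-VNGD and 86 in sh-ctrl, a relative log2 of 0.42 (0.004 to 0.84). PRICKLE2-DT, named as a divergent transcript of the planar polarity gene PRICKLE2, had 153 in sh-VNGD and 115 in sh-ctrl. MIR181A1HG, a microRNA host gene, had 178 in sh-VNGD against 153 in sh-ctrl.

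**Figure D4:**
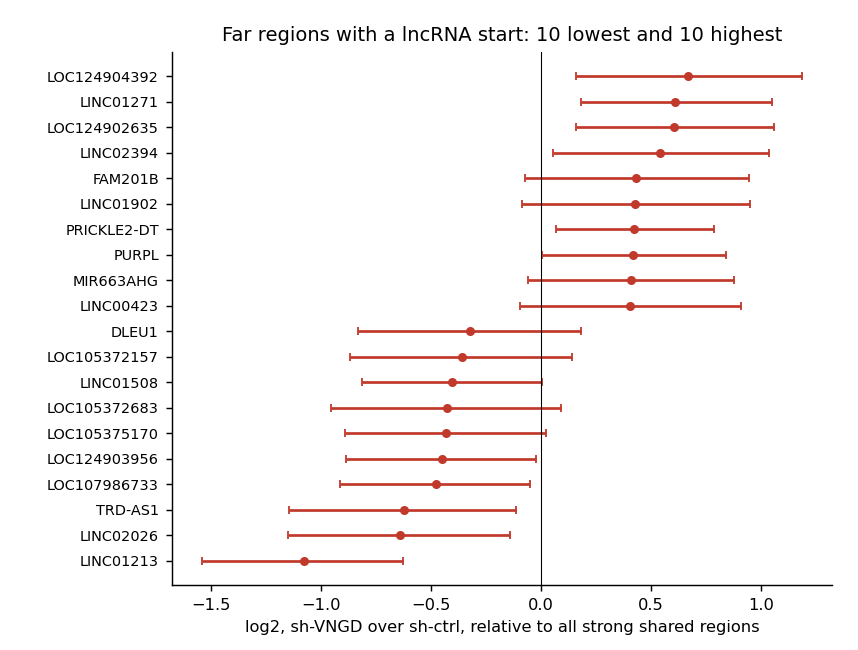
The 10 lowest and 10 highest of the 88 far regions with a lncRNA start, as log2 of sh-VNGD over sh-ctrl relative to the median of all strong shared regions (points), with 95% intervals for counting error only (bars). One symbol is given for regions with starts on both strands. The interval lies wholly below 0 for the 5 lowest, LINC01213, LINC02026, TRD-AS1, LOC107986733 and LOC124903956. Of the 10 highest it lies wholly above 0 for LOC124904392, LINC01271, LOC124902635, LINC02394, PRICKLE2-DT and PURPL. It also does for LINC00472, which is not drawn (0.03 to 0.78). Over all strong shared regions the interval lay wholly below the median in 6.74% and wholly above it in 3.73%.

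MicroRNA genes lay under 9 far regions, and the listed positions put 8 different mature microRNAs inside 7 of them. MIR6724-1 and MIR6724-3, in the ribosomal DNA, lay under the others. None of the 8 shared a seed, the bases 2 to 8 that pair with a target and are shown in capitals (RefSeq, GRCh38.p14). They are shown because several sit in repeated DNA.
hsa-miR-5087: gGGUUUGUagcuuugcuggcaug
hsa-miR-6077: gGGAAGAGcuguacggccuuc
hsa-miR-6080: uCUAGUGCgggcguucccg
hsa-miR-663a: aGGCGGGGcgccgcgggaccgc
hsa-miR-6724-5p: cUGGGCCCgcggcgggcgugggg
hsa-miR-3648: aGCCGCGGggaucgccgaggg
hsa-miR-10396a-5p: gGCGGGGCucggagccggg
hsa-miR-10396a-3p: gGCCCCGGgcccucgaccggg

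The regions over miR-5087 (chr1:148334522-148334544, minus strand) and miR-6077 (chr1:148388294-148388314, plus strand) were the U1 gene regions RNVU1-21 and RNVU1-2, with 176 tags in sh-VNGD, against 195 in sh-ctrl and with 144 in sh-VNGD and 129 in sh-ctrl. miR-6080 (chr17:64780796-64780814, plus strand) had 120 in sh-VNGD and 130 in sh-ctrl. miR-663a (chr20:26208243-26208264, minus strand) had 89 in sh-VNGD and 69 in sh-ctrl, and a neighbouring region held the start of its host gene MIR663AHG with 92 in sh-VNGD and 70 in sh-ctrl. miR-6724-5p had copies in the ribosomal DNA, shown here at chr21:8249515-8249537 (plus strand), with 240 tags in sh-VNGD, against 171 in sh-ctrl. miR-3648 (chr21:8987026-8987046, plus strand) and both arms of miR-10396a (chr21:8987617-8987635 and chr21:8987645-8987665, plus strand) shared a region with 200 tags in sh-VNGD, against 193 in sh-ctrl. The RNAs themselves were not measured.

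Ratios far below the rest were found at single regions in several deserts. The lowest, chr1:117268394-117269495, lay 57.5 kb from VTCN1, which encodes an immune checkpoint ligand, and had 51 tags in sh-VNGD against 160 in sh-ctrl, a log2 ratio of −2.10 (interval −2.58 to −1.64). The next, chr12:67483405-67484497, lay 163 kb from CAND1, an exchange factor of cullin ubiquitin ligases, with 62 in sh-VNGD against 173 in sh-ctrl. A region 95.7 kb from TFAP2C, a developmental transcription factor, had 71 in sh-VNGD against 154 in sh-ctrl (chr20:56734985-56735759). The second PVT1 region named here, chr8:127952135-127952509, had 51 in sh-VNGD against 108 in sh-ctrl. Another 5 of the 10 lowest had 58 to 70 tags in sh-VNGD, against 121 to 147 in sh-ctrl, and LINC01213 was one of them. In these 9 the relative interval lay below 0, with ratios between −2.10 and −1.51.

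The 10 highest ratios were 0.32 to 0.51 on the log2 scale and 0.78 to 0.97 relative to the median of all strong shared regions. The 9 low regions above were at −1.64 to −1.05 relative to that median. The highest were thus smaller in size, but by less on the relative scale. The highest, chr10:44300978-44301803, lay 68.4 kb from CXCL12, a chemokine made by stromal and bone cells, with 97 tags in sh-VNGD, against 50 in sh-ctrl. A region 279 kb from ADRA2A, an adrenergic receptor gene, had 98 in sh-VNGD and 53 in sh-ctrl. A region 318 kb from FOXL1, a forkhead factor gene, had 141 in sh-VNGD and 77 in sh-ctrl, and its interval of 0.01 to 0.84 was the only one of the 10 to lie above 0 without the median taken off. Relative to the median all 10 intervals lay above 0. Of these 10 regions 2 lay beside the chromosome 4 centromere near CWH43, where fold enrichment was 2.89 and 3.11 in sh-VNGD and 2.34 and 2.60 in sh-ctrl.

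The 5 farthest regions all lay on chromosome 22 between its start and OR11H1, an olfactory receptor gene, at 4263 to 4911 kb from it. The farthest, chr22:10616485-10617040, had 60 tags in each library. The 5 widest included 3 ribosomal DNA regions of 3148 or 3164 bp with 240 tags in sh-VNGD, against 171 in sh-ctrl, one of the copied chromosome 21 regions, and chr10:133687542-133690031, 60.7 kb from FRG2B, with 140 in sh-VNGD and 141 in sh-ctrl.

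Far regions were partly grouped. Another far region lay within 20 kb of 800 of them (24.1%), in 302 groups, and 2518 stood alone. The 25 groups of 5 or more held 183 regions, with a median log2 ratio of −0.22 against −0.42 for regions that stood alone. The largest group, 21 regions at chr21:8377108-8471817, and another of 13 at chr21:8194063-8260950 were ribosomal DNA, with medians of −0.12 and −0.09. A group of 13 at chr4:49112587-49155001 beside the centromere had 79 to 140 tags in sh-VNGD, against 54 to 103 in sh-ctrl, a median of −0.001. The remaining groups of the 5 largest were on the long arm of chromosome 20, with 13 regions at chr20:53725058-53806287 and 9 at chr20:47972253-48013070. Their medians were −0.49 and −0.28. Group medians thus lay on either side of that of the regions that stood alone, and those closest to 0 came from ribosomal and pericentromeric DNA.

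With a gap of 50 kb the chromosome 20 groups grew to 28 regions over 239 kb between ZNF217, a transcriptional repressor gene often amplified in cancer, and BCAS1, and to 21 regions over 265 kb between SULF2, an extracellular heparan sulfate sulfatase gene, and PREX1, which encodes an activator of Rac. The first had 51 to 261 tags in sh-VNGD, against 56 to 261 in sh-ctrl, with a median log2 ratio of −0.46 and a range of −1.09 to 0.10. The second had 53 to 175 in sh-VNGD and 50 to 169 in sh-ctrl, with a median of −0.27 and a range of −1.16 to 0.30. Neighbouring regions could stand on opposite sides of the median of all strong shared regions. In the first, the region at 119 kb from the start of the group had 73 tags in sh-VNGD, against 114 in sh-ctrl, and the one at 123 kb had 129 in sh-VNGD and 88 in sh-ctrl. In the second, the region at 126 kb had 79 in sh-VNGD and 129 in sh-ctrl, between neighbours with 103 and 110 in sh-VNGD and 82 and 92 in sh-ctrl. Tags within 10 kb were many here, with medians of 978 in sh-VNGD and 803 in sh-ctrl for the first group, against 333 in sh-VNGD and 244 in sh-ctrl for all far regions.

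**Figure D5:**
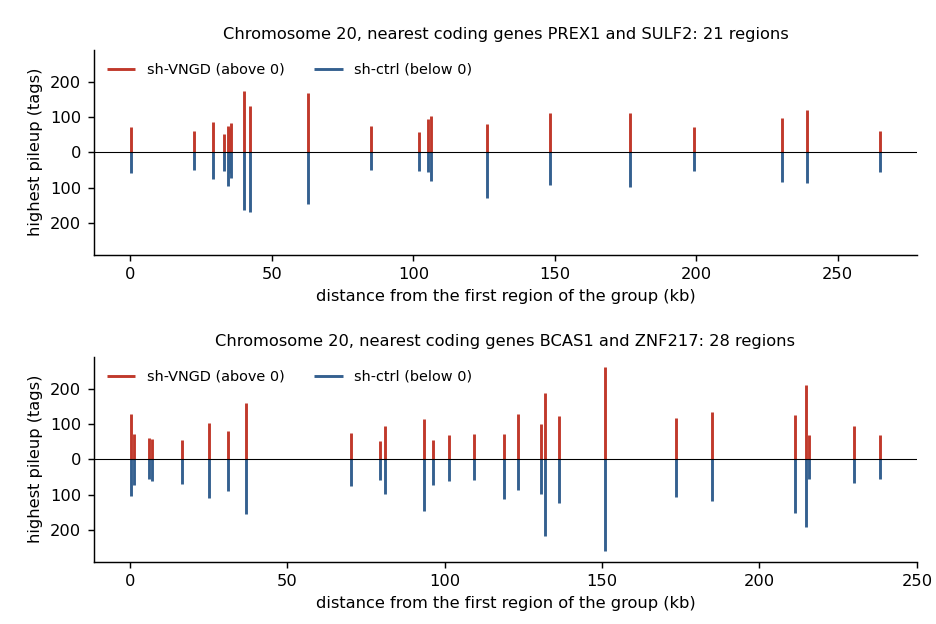
Highest pileup (tags) of each far region in the chromosome 20 groups beside SULF2 and PREX1 (top) and between ZNF217 and BCAS1 (bottom), drawn upward for sh-VNGD and downward for sh-ctrl, by distance from the first region of the group (kb). The tallest region has 261 tags in each library, and the pairs beside it differ in either direction.

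By nearest gene, MYC, the cell growth transcription factor, had 27 far regions, with 51 to 236 tags in sh-VNGD, against 51 to 247 in sh-ctrl, a median log2 ratio of −0.47 and a range of −1.53 to 0.08. Together with 3 near JUN, a subunit of AP-1, these were the 30 far regions (0.904%) nearest to AP-1 and immediate early genes, against 0.159% of the 84809 other far regions. Of the 30, 7 were over 1.5-fold lower and 1 over 1.5-fold higher, where 3.6% and 1.38% of all strong shared regions were. All 7 lower ones were nearest to MYC and the higher one to JUN. Only these 2 of the 14 listed genes were nearest to a far region. These values thus describe mostly the surroundings of MYC, whose regions are not independent, and not the list as a class. Developmental transcription factors were nearest to 128 regions (3.86%, against 3.75% of the other far regions), with a median of −0.45. Of these 128, 8 were over 1.5-fold lower and 1 over 1.5-fold higher, where 3.6% and 1.38% of all strong shared regions were. Among all far regions the shares were 2.74% and 2.17%. TFAP2C had 8 of the 128, with 71 to 109 tags in sh-VNGD, against 60 to 154 in sh-ctrl, a median of −0.80. GATA3, a zinc finger transcription factor gene, had 7, with 61 to 100 in sh-VNGD and 60 to 166 in sh-ctrl, a median of −0.73. TFAP2A had 6 (median −0.53). The nearest gene is a position only and not a measured target.

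Osteoblast and mesenchymal genes were nearest to 13 regions (0.392%, against 0.518% of the other far regions), with a median of −0.42. None of the 13 was past 1.5-fold, where 3.6% of all strong shared regions were lower and 1.38% higher. So few regions do not tell a share of 0 from these shares. YAP and TEAD targets were nearest to 0 of 3318, which by the same limit of 3 counts allows a share of up to 0.0904%, against 0.0283% of the other far regions. Of the genes of other cell types, the blood list was nearest to 4 regions, all by PTPRC, the CD45 gene, with 66 to 178 tags in sh-VNGD, against 61 to 153 in sh-ctrl, 1 of them the MIR181A1HG start. The epithelial list was nearest to 3, all by GRHL2, an epithelial transcription factor gene, with 76 to 119 tags in sh-VNGD, against 117 to 148 in sh-ctrl. In the blood list 1 of the 4 was over 1.5-fold lower and in the epithelial list 1 of the 3, with none higher. The members of these lists were thus few, and most far regions lay beside genes of no list.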

How the data were processed

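Nuclei of U2OS cells were tagged with Tn5 and sequenced on a BGISEQ-500, per the labels' protocols. Tools listed in the submitters' processing notes are MACS2 2.1.2, Bowtie2 2.2.5 and deepTools, with GRCh38.p13 and hg38 as builds. Peaks had been called by the authors in each library separately with MACS 2.1.0.20150731, without a control library, with a shift of 100 bp, an extension of 200 bp, 1 tag kept per position and a q cutoff of 0.05, per the file headers. Filters on alignments are not given in the sources used. Of 48164322 tags read in sh-VNGD and 51628228 in sh-ctrl, 31326715 and 22931980 were kept, per the file headers.

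The deposited pileup is a signal, the unscaled number of tags at the summit, and the fold enrichment is the authors' own value for each peak, (pileup + 1) over (local background + 1). The deposited −log10 p values were not used. The −log10 q values served only in an alternative that kept peaks with a value of 20 or more, which gave 3229 far regions. Tags within 10 kb were computed from pileup and fold and came out whole within 0.05 for 99.88% of strong shared regions in sh-VNGD and 99.97% in sh-ctrl. In 9 far regions of sh-VNGD and 2 of sh-ctrl the value is instead the genome-wide floor of 95.8 or 70.1 tags. Peaks overlapping by at least 1 bp were merged, and a region took the highest pileup of each library. Genes, their outer bounds and sequences came from RefSeq tables of GRCh38.p14, with 19122 protein-coding genes on chromosomes 1 to 22 and no exons. Ratios carry exact Clopper-Pearson 95% intervals and shares Wilson 95% intervals, except that a share of 0 has the upper limit of 3 counts over the total. The interval was checked on simulated pileups.

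The regions, lists and rules were chosen with earlier results of these data known. One of the 10 lowest ratios is not reported here. The rule for named regions took the 10 highest, the 10 highest and 10 lowest ratios, the 5 farthest, the 5 widest, the 5 largest groups and the 3 nearest to each side of a threshold. Genes of the lists, lncRNA starts and repeated genes were named after their values were seen. The planned base composition of the regions needs a genome sequence and was replaced by RefSeq promoter windows. No p-value was computed. Alternatives changed the pileup and distance limits, the scaling, the measure and the regions kept. Python 3.11.15, numpy 2.4.6, scipy 1.17.1, pandas 2.3.3 and matplotlib 3.10.9 were used.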

Additional observations from a re-analysis of the deposited data

How the results depend on the processing

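No paired analysis was possible because each group had 1 library, so leaving out a replicate was not possible either. The summit ratio of the far regions depends on scaling, which also reverses its sign. Its median of −0.41 became 0.040 unscaled and 0.14 when scaled to tags read. It was −0.40, −0.43 and −0.39 with a pileup minimum of 40, of 75 and scaled to kept tags, −0.40 when lncRNA genes were also avoided, and −0.32 for fold enrichment. Its excess over nearer regions (0.06) was 0.050 with summed pileups, 0.040 against regions deep inside genes and 0.045 for regions without another peak within 5 kb, and −0.19 for fold enrichment, which divides by the tags around. The median for the tags within 10 kb (0.02) was 0.039 at a minimum of 75, 0.045 at the scaled minimum, −0.023 at over 20 kb from genes, 0.048 at over 100 kb, 0.072 avoiding lncRNA genes, 0.57 scaled to tags read, 0.035 without chromosomes 20 and 21 and 0.055 without neighbouring peaks, so its sign is not firm. Its excess over nearer regions (0.35) stayed positive, at 0.33 (minimum 40), 0.39 (minimum 75), 0.32 (20 kb), 0.37 (100 kb), 0.38 (lncRNA genes), 0.37 (without chromosomes 20 and 21), 0.16 (against deep regions) and 0.31 (without neighbouring peaks). The share past 1.5-fold in either direction (4.91%) was 7.60% at a minimum of 40, 1.42% at 75, 3.32% scaled, 3.73% avoiding lncRNA genes, 3.01% for fold, 7.96% for summed pileups and 0.362% past 2-fold. At the main setting 3.6% of all strong shared regions were lower and 1.38% higher by over 1.5-fold. Their shares at the other settings are not given here, so these changes are not read as particular to far regions. The number of regions (3318) was 1825 at a minimum of 75 and 1234 avoiding lncRNA genes. The median width (704 bp) was 628 bp for sh-VNGD and 583 bp for sh-ctrl peaks alone, and 38.8% of regions had a neighbour within 50 kb. The alternatives on rRNA genes, copies, chromosomes 20 and 21, deep regions, regions without neighbouring peaks and all on tags within 10 kb were chosen after seeing the data.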

Other observations

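Other genes of chromosome 20 and of pericentromeric DNA also had many far regions nearest to them. BMP7, which encodes a bone morphogenetic protein, had 11, with 55 to 138 tags in sh-VNGD and 53 to 170 in sh-ctrl and a median log2 ratio of −0.61. PREX1 had 12, with 60 to 146 in sh-VNGD and 50 to 146 in sh-ctrl and a median of −0.22. CWH43 on chromosome 4 had 29, with a median of −0.14, and DEFB115 on chromosome 20 had 8, with 69 to 99 tags in sh-VNGD, 51 to 74 in sh-ctrl and a median of 0.004. At DEFB115 the median fold enrichment was 4.17 in sh-VNGD and 4.59 in sh-ctrl, against 12.2 in sh-VNGD and 15.6 in sh-ctrl for all far regions. On chromosome 8, TRIB1, a pseudokinase gene, had 10 with a median of −0.11 and LRATD2 had 9 with a median of −0.44, beside the −0.47 of MYC. By chromosome, far regions made up 27.3% of the strong shared regions of chromosome 4 (Wilson 95% interval 24.6 to 30.3%) and 1.11% of those of chromosome 19 (0.674 to 1.82%).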
